A study of Homo sapiens with 18 samples.

Results

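Nuclear receptors other than the retinoid receptors were followed through retinoic acid (RA) patterning of human foregut endoderm. The 35 genes were chosen by symbol, all 35 were found in a count table of 35025 genes, and 26 passed the filter on low counts that left 15531 genes to test. The cells were wild-type H1 human embryonic stem cells, an established line, differentiated to foregut endoderm and profiled by bulk RNA-seq in 6 groups of 3 libraries. The groups were untreated endoderm at day 6, endoderm given all-trans RA (2 µM, 24 h, days 5 to 6) and taken at day 6, untreated endoderm at day 9, RA-treated endoderm left until day 9, endoderm given CHIR99021 (2 µM) with BMP4 (50 ng/mL) for 72 h over days 6 to 9, and endoderm given RA and then CHIR99021 with BMP4. CHIR99021 is a GSK3 inhibitor that activates Wnt signalling, and it is called CHIR/BMP4 below together with BMP4, a bone morphogenetic protein. All groups share the line and genotype, a single cell line limits them as a model, and since the labels do not say whether the replicates of a group came from different cultures, the p values cover only the spread among these libraries.

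Nuclear receptors are transcription factors that bind DNA through a pair of zinc fingers, and many are switched by a small lipophilic ligand. Steroid receptors such as the glucocorticoid receptor are held by chaperones until hormone arrives, the fatty acid, oxysterol, bile acid and xenobiotic receptors pair with RXR, and orphan receptors such as the COUP-TFs, NR4A factors and NR6A1 act with no established classical hormone. In the gut tube and its derivatives, COUP-TFs, NR5A2 and several metabolic receptors are known as regulators of cell identity and organ growth.

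Library totals ran from 5792337 to 25371661 counts. Levels are CPM, the reads of a gene in every 1000000 of its scaled library, ± is the SD with n = 3, fold changes are log2 with their standard error (SE), and a gene was called at an adjusted p below 0.05 in edgeR's quasi-likelihood test. The 10 endoderm epithelium markers all had reads in every group and summed to between 3082 and 10930 CPM. Of 8 cardiac markers 6 rose and 1 fell with RA at day 9. Their summed level reached 1189 to 1725 CPM in the RA day 9 libraries and at most 71.0 CPM elsewhere, with MYBPC3 at 0 in all 3 other day 9 groups and SMYD1 at 0 in untreated and CHIR/BMP4 cells. Of 9 mesenchyme markers 6 rose and none fell with RA at day 9. The part of these cells in the RA day 9 results was not tested, and in bulk RNA fewer cells of a type and less RNA per cell cannot be told apart. The libraries also fell into 2 kinds by 56 genes that differed at least 10-fold between every untreated and every treated library (replicates 1 and 3 of untreated day 6 were left out of this choice), 53 of them pseudogenes and 0 of them among the 35 receptors. Those 2 libraries lay between the kinds, at 22.5% and 39.8% of the distance. RA under CHIR/BMP4, CHIR/BMP4 after RA, and day 9 against day 6 after RA are comparisons within one kind. In RA at day 9 and in CHIR/BMP4 without RA, kind and treatment cannot be told apart, and RA at day 6 and untreated day 9 against day 6 carry part of the difference.

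Windows around transcript starts are shown for 6 receptors whose levels are given library by library below, because their group differences carry the results. Each window runs from 250 bases before to 50 bases after a transcript start at the deposited gene start, 5′ to 3′ on the gene's strand, from RefSeq (GRCh38.p14). Windows were found for 31 of the 35 genes. Capitals mark matches on either strand to the nuclear receptor half-site AGGTCA, the CRE half-site TGACG or the E-box CACGTG.
NR2F1, chr5:93582972-93583271, plus strand: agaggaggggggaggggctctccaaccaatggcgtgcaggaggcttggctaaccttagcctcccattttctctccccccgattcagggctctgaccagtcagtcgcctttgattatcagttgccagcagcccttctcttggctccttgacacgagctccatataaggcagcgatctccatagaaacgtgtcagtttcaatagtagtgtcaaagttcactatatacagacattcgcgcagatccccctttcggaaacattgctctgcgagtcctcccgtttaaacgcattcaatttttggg
NR2F2, chr15:96332315-96332614, plus strand: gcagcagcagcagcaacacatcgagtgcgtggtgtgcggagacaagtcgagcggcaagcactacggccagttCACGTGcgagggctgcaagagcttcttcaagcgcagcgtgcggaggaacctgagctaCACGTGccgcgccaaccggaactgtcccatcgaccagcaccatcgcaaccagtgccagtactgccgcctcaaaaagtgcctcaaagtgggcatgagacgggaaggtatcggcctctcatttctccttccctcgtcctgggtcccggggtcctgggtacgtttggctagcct
NR2C1, chr12:95073569-95073868, minus strand: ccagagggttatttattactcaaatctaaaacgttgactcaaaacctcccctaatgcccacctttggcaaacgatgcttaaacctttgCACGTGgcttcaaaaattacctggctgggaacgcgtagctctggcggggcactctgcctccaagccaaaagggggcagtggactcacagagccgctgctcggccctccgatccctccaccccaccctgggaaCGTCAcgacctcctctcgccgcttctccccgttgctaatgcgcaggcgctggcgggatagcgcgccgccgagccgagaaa
NR4A3, chr9:99821635-99821934, plus strand: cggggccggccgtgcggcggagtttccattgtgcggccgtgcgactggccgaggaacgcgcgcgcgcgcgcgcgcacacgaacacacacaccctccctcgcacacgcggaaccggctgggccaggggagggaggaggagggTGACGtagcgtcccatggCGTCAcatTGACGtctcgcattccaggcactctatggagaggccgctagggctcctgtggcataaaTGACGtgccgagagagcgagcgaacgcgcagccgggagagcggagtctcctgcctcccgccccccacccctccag
NR1D2, chr3:23945871-23946170, plus strand: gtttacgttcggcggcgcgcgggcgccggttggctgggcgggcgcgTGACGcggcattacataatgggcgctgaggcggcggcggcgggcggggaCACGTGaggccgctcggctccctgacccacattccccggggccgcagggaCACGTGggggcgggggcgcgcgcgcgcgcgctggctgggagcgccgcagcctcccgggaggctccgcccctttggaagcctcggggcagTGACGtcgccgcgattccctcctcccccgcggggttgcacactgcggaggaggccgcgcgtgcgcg
NR5A2, chr1:200027460-200027759, plus strand: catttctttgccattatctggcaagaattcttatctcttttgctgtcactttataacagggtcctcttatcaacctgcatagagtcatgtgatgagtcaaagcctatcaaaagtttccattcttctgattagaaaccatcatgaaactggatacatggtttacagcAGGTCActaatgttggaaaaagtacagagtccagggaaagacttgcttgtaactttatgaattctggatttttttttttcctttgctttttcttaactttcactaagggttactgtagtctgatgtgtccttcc
The NR2F1 window held none of these motifs. The NR2F2 window is at the start of a shorter transcript and holds coding sequence of the longer one, so it is not the promoter of the longer transcript, and its 2 E-box matches are not set against those of other genes. NR4A3 held 4 CRE half-sites, which 24.6% of the 35116 promoter windows of this length carry at least once. Among windows not shown, that of NR4A1 at its deposited start held none and that of NR6A1 held 2. These 2 overlap as the 2 strands of 1 full CRE (TGACGTCA). NR2E1 was the only other receptor with a full CRE, which 1.85% of windows carry. NR1D2 held 2 CRE half-sites. It also held 2 E-boxes, the element bound by CLOCK and BMAL1, against 7.26% of windows with at least 1. No E-box was in the NR1D1 window at its deposited start, nor in NR1D2 and RORA windows at other starts, all not shown. NR2C1 held 1 CRE half-site and 1 E-box. NR5A2 held 1 receptor half-site, as do 13.8% of windows. Exact direct repeats of AGGTCA spaced by 1, 2 or 5 bases were in no window of the 31 genes and in 8, 1 and 2 of all windows. A match is a description of these letters only.

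Receptors were called in every comparison, alongside a large share of all genes. RA at day 6 raised 8 and lowered 6 of the 26 tested receptors, 53.8% of them, while 48.7% of all tested genes were called (25.3% and 23.4% in each direction). RA at day 9 raised 10 and lowered 10 receptors (76.9%, beside 65.1% of all genes, 32.5% and 32.5%). RA under CHIR/BMP4 raised 6 and lowered 7 (50%, beside 43.3% of all genes, 21.2% and 22.1%). CHIR/BMP4 without RA raised 4 and lowered 6 (38.5%, beside 42.8% of all genes, 21% and 21.8%), and after RA it raised 9 and lowered 11 (76.9%, beside 64.4% of all genes, 32.1% and 32.3%). From day 6 to day 9, 7 rose and 8 fell in untreated cells (57.7%, beside 46.9% of all genes, 24% and 22.9%), and 8 rose and 12 fell after RA (76.9%, beside 58.8% of all genes, 28.5% and 30.3%). The response to RA at day 9 differed with CHIR/BMP4 for 6 receptors upwards and 5 downwards (42.3%, beside 53.4% of all genes, 25.5% and 27.9%), and between day 6 and day 9 for 6 upwards and 9 downwards (57.7%, beside 50.9% of all genes, 24.9% and 26%). These comparisons share groups with each other, and the same shares of all genes apply to the gene lists counted below. In the 7 comparisons of 2 groups, the median log2 fold change of the 26 receptors lay between -0.28 and 0.23, and that of all tested genes between -0.03 and 0.02. Their median size of change there, without sign, ran from 0.36 to 0.91, against 0.28 to 0.50 over all tested genes. For the difference between day 6 and day 9 in the response to RA, the receptors' median was -0.71 and their median size 1.11, against -0.04 and 0.51 over all tested genes. For the difference with CHIR/BMP4 these were -0.02 and 0.58, against 0 and 0.53. NR4A1 and ESRRG were called in all 7 comparisons of 2 groups. NR1H2 was called in none by edgeR (unadjusted p below 0.05 in 1 of 7), DESeq2 or limma. Without untreated day 6 replicate 3, the receptors called higher with RA at day 6 fell from 8 to 5, and without RA then CHIR/BMP4 replicate 1 those called higher with CHIR/BMP4 after RA fell from 9 to 5.

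The read kinds bear on these counts. With each library's position between the kinds as a covariate, whose effect is set by the 3 untreated day 6 libraries because the other groups hardly vary in it, 1 receptor was called higher and 2 lower for RA at day 6 (PPARA, and NR3C1 and NR4A3), 1 was called for RA at day 9 (ESRRG, higher) and 0 for CHIR/BMP4 without RA. In the last of these, 4 receptors had an unadjusted edgeR p below 0.05, beside 10 calls without the covariate and 7 in limma on TPM. The loss was not particular to receptors: of all 15531 tested genes, 891 were called with this covariate for RA at day 6, beside 7571 without it. For RA at day 9 these numbers were 1080 and 10105, and for CHIR/BMP4 without RA 120 and 6654. An earlier form of this covariate, a summed share of the 56 genes, left 0 higher and 1 lower for RA at day 6 (unadjusted 5 and 2) and none for RA at day 9 (unadjusted 3 and 1) or for CHIR/BMP4 without RA (unadjusted 1 and 0); the form was changed after these results had been seen. Leaving out both mixed untreated day 6 libraries was an alternative chosen after the data were seen. It leaves only replicate 2 in that group, so its calls are not counted here. All other calls of these 3 comparisons, including those given below, were lost or reversed under the covariate. Untreated day 9 against day 6 kept 10 calls and lost 5. The 3 comparisons within one kind kept 52 of 53, but their libraries hardly differ in position, so the covariate could hardly move them. Scaling mattered too: on deposited TPM with limma, the median of all genes shifted by 0.20 for RA at day 6, 0.33 for RA at day 9 and 0.24 for CHIR/BMP4 without RA, and the receptors called higher and lower became 11 and 3, 11 and 5, and 6 and 1.

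**Figure D1:**
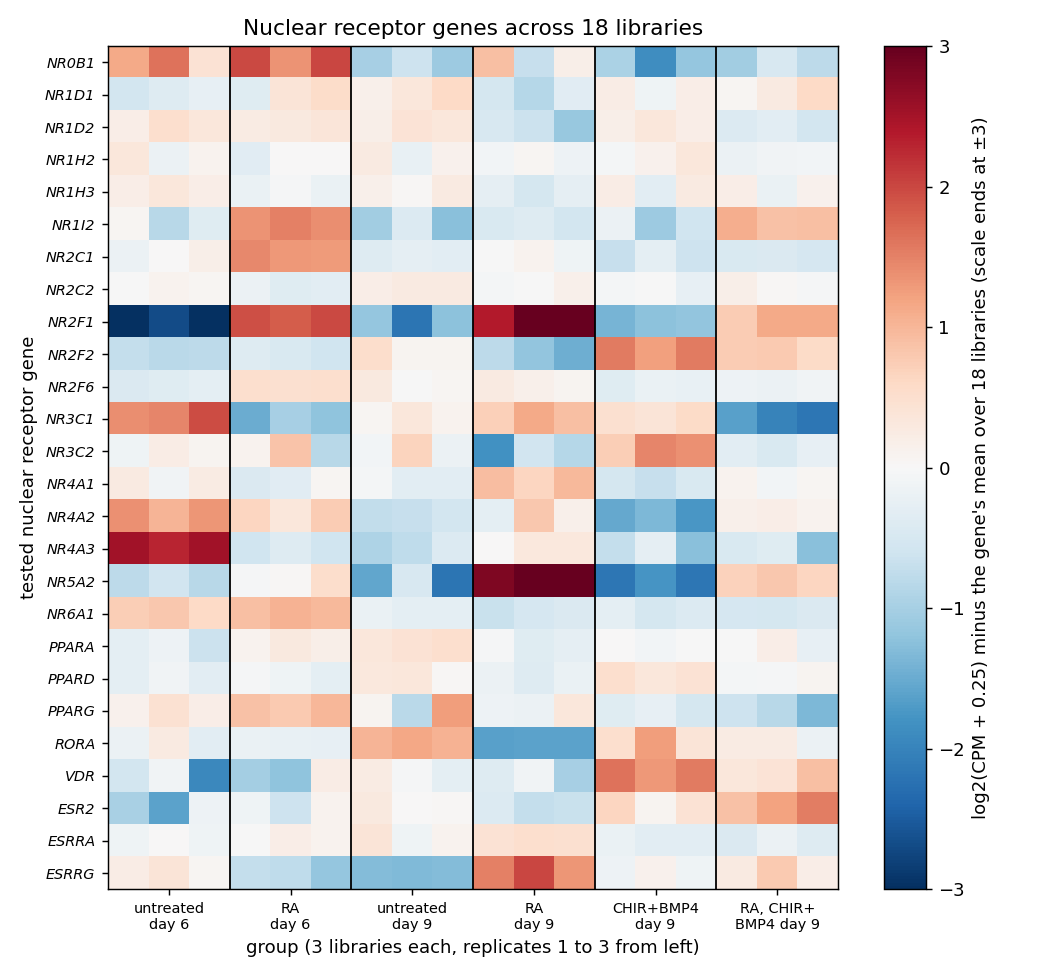
Heat map of the 26 tested receptor genes (rows) in 18 libraries (columns, 3 per group), coloured by log2(CPM + 0.25) minus each gene's mean over all libraries. NR2F1 and NR5A2 are highest in the RA day 9 libraries and NR4A3 in the untreated day 6 libraries.

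Per length, NR6A1 and NR2F6 were among the 3 highest receptors in every group. In untreated day 6 cells NR6A1 stood at 225 ± 8.93 TPM (transcripts in every 1000000, counted per length), NR2F6 at 92.5 ± 7.67 TPM and NR2F2 at 43.7 ± 2.41 TPM. After RA at day 6 the order was NR6A1 (309 ± 18.2 TPM), NR2F6 (193 ± 1.8 TPM) and NR2C1 (108 ± 5.94 TPM). With CHIR/BMP4 alone NR2F2 led at 214 ± 24.1 TPM, ahead of NR6A1 (108 ± 4.13 TPM) and NR2F6 (104 ± 11.7 TPM), and these last 2 did not differ beyond their spread.

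NR2F1 (COUP-TFI) rose with RA in each of the 3 settings tested. NR2F1 and NR2F2 (COUP-TFII) are closely related orphan receptors of the COUP-TF family, known in embryonic patterning of mesenchyme, nervous system and gut. NR2F1 lies at chr5:93583222-93594609 and NR2F2 at chr15:96332565-96340263 (GRCh38), deposited spans that differ from those of RefSeq. NR2F1 stood at 1.34, 1.75 and 1.07 CPM in untreated day 6 cells and 48.8, 44.7 and 50.3 CPM after RA, and no library of one group reached the other. The rise was 35.2-fold (log2 fold change 5.14 ± 0.30 SE, edgeR adjusted p = 2.7e-10). At day 9 it stood at 5.51, 2.55 and 5.18 CPM without and 67.1, 101 and 123 CPM with RA (log2 fold change 4.34 ± 0.23 SE, edgeR adjusted p = 2.3e-11), and its 3 RA libraries spread widely. CHIR/BMP4 alone gave 4.63, 5.21 and 5.44 CPM, which overlapped the untreated range (log2 fold change 0.09 ± 0.28 SE, edgeR adjusted p = 0.83). RA followed by CHIR/BMP4 gave 21.7, 28 and 27.8 CPM, 4.97-fold above CHIR/BMP4 alone (log2 fold change 2.31 ± 0.22 SE, edgeR adjusted p = 2.1e-07) and 3.83-fold below RA alone (log2 fold change -1.94 ± 0.18 SE, edgeR adjusted p = 4.4e-08). Both of these comparisons lie within one read kind. With the read-kind covariate the day 6 and day 9 calls for RA were lost, at log2 fold changes of 6.72 (edgeR adjusted p = 0.065) and 6.34 (edgeR adjusted p = 0.17). Without both mixed untreated day 6 libraries, which leaves only replicate 2 in that group, the day 6 rise was 4.75.

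NR2F2 fell with RA at day 9 and rose with CHIR/BMP4. It stood at 104, 97.9 and 99.5 CPM in untreated day 6 cells and 132, 125 and 113 CPM after RA, and although the groups did not overlap the difference did not pass the test (log2 fold change 0.30 ± 0.15 SE, edgeR adjusted p = 0.12, 95% interval -0.02 to 0.62). At day 9 it stood at 249, 183 and 182 CPM untreated and 98.8, 75.4 and 62.1 CPM with RA, 2.64-fold lower (log2 fold change -1.40 ± 0.15 SE, edgeR adjusted p = 5.4e-07). CHIR/BMP4 gave its highest levels, 507, 402 and 511 CPM alone and 292, 297 and 258 CPM after RA, again without overlap. RA lowered it under CHIR/BMP4 (log2 fold change -0.75 ± 0.14 SE, edgeR adjusted p = 4.6e-04), and CHIR/BMP4 raised it after RA (log2 fold change 1.85 ± 0.15 SE, edgeR adjusted p = 1.6e-08). Its day 9 call for RA and its call for CHIR/BMP4 without RA were lost with the read-kind covariate, at -1.52 (edgeR adjusted p = 0.25) and 1.08 (edgeR adjusted p = 0.64). Mesenchyme marker sums stood at 771 to 1239 CPM in untreated day 9 and 2364 to 3579 CPM in RA day 9 libraries. They stood at 1109 to 1372 CPM in CHIR/BMP4 and 338 to 381 CPM in RA then CHIR/BMP4 libraries. None of the 9 markers was at 0. With RA under CHIR/BMP4, 3 of the 9 rose and 4 fell (median 0.05 against -0.01 over all genes). COL1A2 fell there from 860.5 ± 120 to 65.9 ± 8.15 CPM, and PDGFRA rose from 5.5 ± 0.866 to 54.5 ± 3.29 CPM. The part of these markers in the COUP-TF results was not tested.

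The balance of the pair differed between groups. NR2F1 made up 1.64 ± 0.423% of the summed NR2F1 and NR2F2 TPM in untreated day 6 cells and 31.9 ± 2.61% after RA. At day 9 its share was 2.51 ± 0.831% untreated, 59 ± 12.9% after RA, 1.3 ± 0.225% with CHIR/BMP4 and 9.96 ± 1.67% after both. In RA day 9 cells it ran from 44.9% to 70.4%, so NR2F1 exceeded NR2F2 in 2 of the 3 libraries. Antisense genes overlap both loci (NR2F1-AS1 with 546 and NR2F2-AS1 with 705 counts in all libraries), and whether the counting used strand is not given in the sources used here; reads of the antisense genes could be among these counts. In all, 22 of the 35 receptors overlap a gene on the opposite strand, among them NR2C2, NR1H2, NR1H3 and ESRRA with partners that have more counts than they do, and the same uncertainty holds for each. NR2F6, a further family member that often acts as a repressor, rose from 55 ± 2.96 to 99.9 ± 0.434 CPM with RA at day 6 (log2 fold change 0.86 ± 0.08 SE, edgeR adjusted p = 6.2e-09) and stood at 77.2 ± 8.31 and 80.2 ± 5.44 CPM at day 9 (log2 fold change 0.04 ± 0.08 SE, edgeR adjusted p = 0.7).

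**Figure D2:**
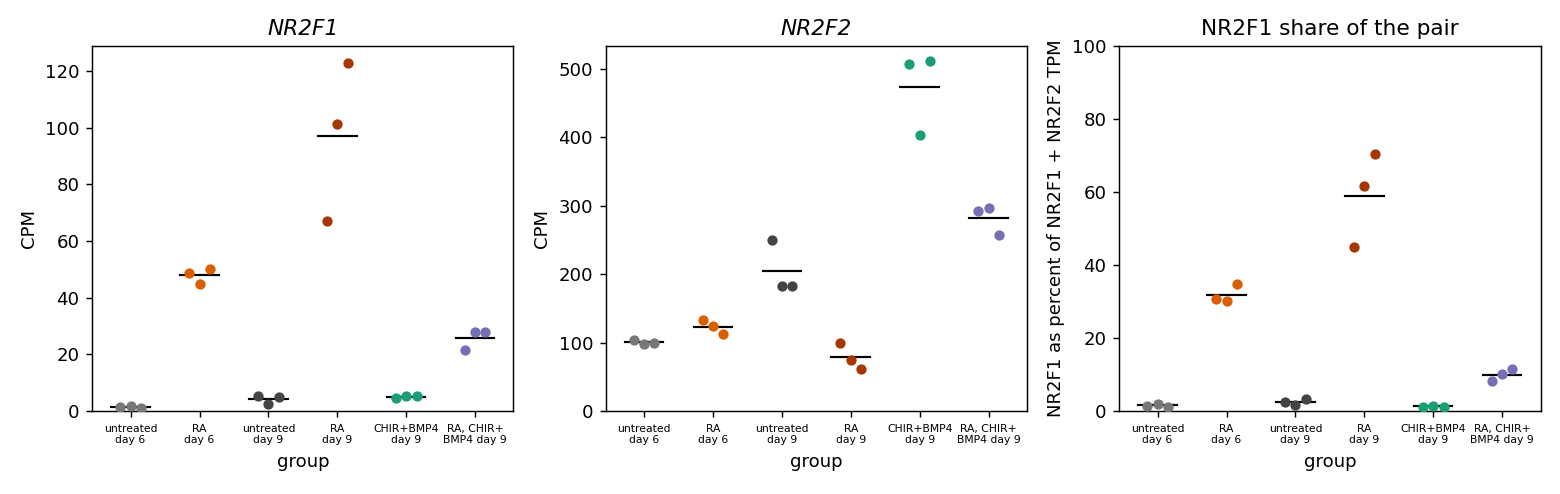
NR2F1 (left) and NR2F2 (middle) in CPM on linear axes, and NR2F1 as a percent of the pair's summed TPM (right), by group; points are libraries and bars are means of 3. NR2F1 is highest with RA at day 9 (67.1 to 123 CPM) and NR2F2 with CHIR/BMP4 alone (402.5 to 511 CPM).

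NR5A2 rose with RA at day 9 and under CHIR/BMP4. NR5A2 (LRH-1) is an orphan receptor known in endoderm, liver and pancreas, and it lies at chr1:200027710-200177415. It stood at 0.683, 1.7 and 0.346 CPM in untreated day 9 cells and 18.8, 31.6 and 31.4 CPM with RA (log2 fold change 5.06 ± 0.29 SE, edgeR adjusted p = 5.0e-13), a group difference of 33.4-fold. CHIR/BMP4 alone gave 0.362, 0.554 and 0.363 CPM and RA then CHIR/BMP4 gave 4.16, 4.52 and 4.0 CPM. RA therefore raised it under CHIR/BMP4 (log2 fold change 3.35 ± 0.35 SE, edgeR adjusted p = 5.4e-08), and CHIR/BMP4 lowered it after RA (log2 fold change -2.70 ± 0.22 SE, edgeR adjusted p = 1.7e-10). At day 6 the groups stood at 1.34, 1.59 and 1.29 and 2.43, 2.53 and 3.68 CPM (log2 fold change 1.01 ± 0.35 SE, edgeR adjusted p = 0.02). Without both mixed untreated libraries, which leaves only untreated replicate 2, this small rise was 0.80. It lost its call without untreated replicate 1, untreated replicate 3 or RA replicate 3 (edgeR adjusted p from 0.054 to 0.078). The day 9 call was lost with the read-kind covariate, at 5.91 (edgeR adjusted p = 0.062). Both comparisons within one kind kept theirs, but the covariate could hardly move them.

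NR0B1 (DAX1), a corepressor-like receptor with no DNA-binding domain, fell from 1.75 ± 0.79 CPM at day 6 to 0.238 ± 0.0898 CPM at day 9 in untreated cells (log2 fold change -2.86 ± 0.58 SE, edgeR adjusted p = 3.1e-04). Of 9 genes of steroid hormone synthesis, pathway genes that NR5A-family receptors are known to regulate, 5 were tested; none rose and 4 fell with CHIR/BMP4 after RA, with a median of -0.58 against 0.02 over all genes. In comparisons where NR5A2 rose, 1 of the 5 rose and none fell with RA at day 9 (median 0.14), none rose and 1 fell with RA under CHIR/BMP4 (median 0.18), and 2 rose and none fell with RA at day 6 (median 0.39). SCARB1, a lipoprotein receptor, fell from 38.9 ± 6.06 to 26.0 ± 2.25 CPM with CHIR/BMP4 after RA. NR6A1 (GCNF), an orphan receptor that represses pluripotency genes, fell from day 6 to day 9. It stood at 412, 438 and 375 CPM in untreated and 461, 514 and 486 CPM in RA cells at day 6, and at 216, 202 and 203 and 157, 175 and 184 CPM at day 9. All day 9 libraries lay below all day 6 libraries, with falls of 1.97-fold untreated (log2 fold change -0.98 ± 0.08 SE, edgeR adjusted p = 5.4e-10) and 2.83-fold after RA (log2 fold change -1.50 ± 0.08 SE, edgeR adjusted p = 9.9e-14). CHIR/BMP4 gave 202, 173 and 187 CPM alone and 174, 172 and 184 CPM after RA, with neither difference past the test. The 5 pluripotency markers summed to 2678 to 3233 CPM in untreated and 1865 to 1955 CPM in RA libraries at day 6. At day 9 they summed to 2053 to 2341 CPM untreated and 1001 to 1077 CPM with RA. LIN28A made up most of each sum, at 2890 ± 267 CPM in untreated day 6 and 1018 ± 42.6 CPM in RA day 9 cells. The part of these markers in the NR6A1 results was not tested.

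NR3C1, the glucocorticoid receptor, fell with RA at day 6 and under CHIR/BMP4. It lies at chr5:143277934-143403686. At day 6 it stood at 23.9, 25.1 and 35.1 CPM untreated and 2.98, 4.33 and 3.68 CPM after RA, a 7.58-fold fall (log2 fold change -2.92 ± 0.18 SE, edgeR adjusted p = 5.9e-12) with no overlap. With CHIR/BMP4 it stood at 12.6, 11.6 and 13.3 CPM alone and 2.73, 2.01 and 1.79 CPM after RA (log2 fold change -2.44 ± 0.20 SE, edgeR adjusted p = 6.3e-10). At day 9 without CHIR/BMP4 it was instead higher with RA, 14.8, 19.7 and 16.8 against 9.32, 11.2 and 9.5 CPM (log2 fold change 0.80 ± 0.17 SE, edgeR adjusted p = 1.9e-04). The day 6 fall stayed called with the read-kind covariate (-3.83, edgeR adjusted p = 1.8e-05), and the day 9 rise turned to -0.37 (edgeR adjusted p = 0.78).

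Targets of the receptor did not move in one direction with it. Of 8 tested glucocorticoid target genes, 3 rose and 2 fell with RA at day 6 (median 0.06), 5 rose and none fell with RA at day 9 (median 0.44), and 4 rose and 1 fell with RA under CHIR/BMP4 (median 0.24), beside medians of 0, -0.02 and -0.01 over all genes. ZBTB16, a zinc finger factor, rose with RA at day 6 from 54.3 ± 4.44 to 266 ± 15.1 CPM, while SGK1, a kinase, fell from 9.21 ± 1.98 to 4.85 ± 0.41 CPM. Among 10 chaperones and co-chaperones of steroid receptors, 5 rose and 2 fell with RA at day 6, with a median of 0.17. Over all tested genes the median was 0 and 48.7% were called. FKBP4 rose from 85.2 ± 2.71 to 134 ± 13.7 CPM and HSPA8 fell from 1449 ± 58.1 to 1059 ± 16.8 CPM. NR3C2, the mineralocorticoid receptor, was low throughout and fell with RA under CHIR/BMP4 from 3.15 ± 0.86 to 0.892 ± 0.0819 CPM (log2 fold change -1.80 ± 0.36 SE, edgeR adjusted p = 2.8e-04).

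The NR4A receptors changed with treatment and day but not as one. NR4A1, NR4A2 and NR4A3 are orphan receptors transcribed as immediate early genes. NR4A3 stood at 23.7, 20.4 and 23.8 CPM in untreated day 6 cells and 2.54, 2.94 and 2.55 CPM after RA, with no overlap (log2 fold change -3.06 ± 0.22 SE, edgeR adjusted p = 6.9e-11). It stood at 1.97, 2.21 and 2.94 CPM in untreated and 4.01, 5.01 and 5.0 CPM in RA cells at day 9 (log2 fold change 1.08 ± 0.26 SE, edgeR adjusted p = 9.8e-04). Untreated day 6 was thus its single high group, 10.1-fold above untreated day 9. CHIR/BMP4 gave 2.32, 3.21 and 1.5 CPM alone and 2.82, 3.01 and 1.52 CPM after RA, which overlapped (log2 fold change 0.22 ± 0.26 SE, edgeR adjusted p = 0.53).

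NR4A1 was highest in RA day 9 libraries. It stood at 38.7, 29.8 and 38.1 and 23.6, 25.2 and 33.1 CPM at day 6, groups that overlapped, and at 30.7, 25.5 and 25.8 and 61.3, 50.1 and 63 CPM at day 9, groups that did not (log2 fold change 1.06 ± 0.13 SE, edgeR adjusted p = 1.3e-07). With CHIR/BMP4 it stood at 22, 19.6 and 23.3 CPM alone and 34.2, 30.3 and 33.5 CPM after RA (log2 fold change 0.59 ± 0.13 SE, edgeR adjusted p = 5.4e-04). Its small differences for RA at day 6, CHIR/BMP4 without RA and untreated day 9 against day 6 each lost their call without one of several single libraries (edgeR adjusted p from 0.061 to 0.24 there). NR4A2 was the lowest of the 3 per length. It stood at 8.58, 6.68 and 8.37 and 5.08, 4.09 and 5.52 CPM at day 6, 1.81, 1.87 and 2.07 and 2.57, 5.74 and 3.56 CPM at day 9, and 0.941, 1.11 and 0.777 and 3.59, 3.72 and 3.45 CPM with CHIR/BMP4. RA raised it under CHIR/BMP4 with no overlap (log2 fold change 1.97 ± 0.28 SE, edgeR adjusted p = 3.5e-06). With the read-kind covariate none of the 3 was called for RA at day 9.

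Other immediate early genes moved in the same comparisons. Of 15, all tested, 14 rose and none fell with RA at day 9 (median 2.05 against -0.02 over all genes), none rose and 8 fell with RA at day 6 (median -0.52 against 0), and 4 rose and 4 fell with RA under CHIR/BMP4. All 15 fell with CHIR/BMP4 after RA (median -3.55 against 0.02). JUNB, an AP-1 subunit, rose from 5.82 ± 0.27 to 68.9 ± 7.65 CPM with RA at day 9, and FOS fell from 23.4 ± 2.47 to 2.34 ± 0.18 CPM with RA at day 6. From day 6 to day 9 in untreated cells, where NR4A3 fell, 1 of the 15 rose and 4 fell (median -0.08 against 0). The summed level of the 15 was 2273 to 2381 CPM in RA day 9 and 284 to 401 CPM in both CHIR/BMP4 groups. It was 917 to 1033 CPM in untreated day 6, 817 to 944 CPM in untreated day 9 and 593 to 677 CPM in RA day 6. Their part in the NR4A results was not tested.

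**Figure D3:**
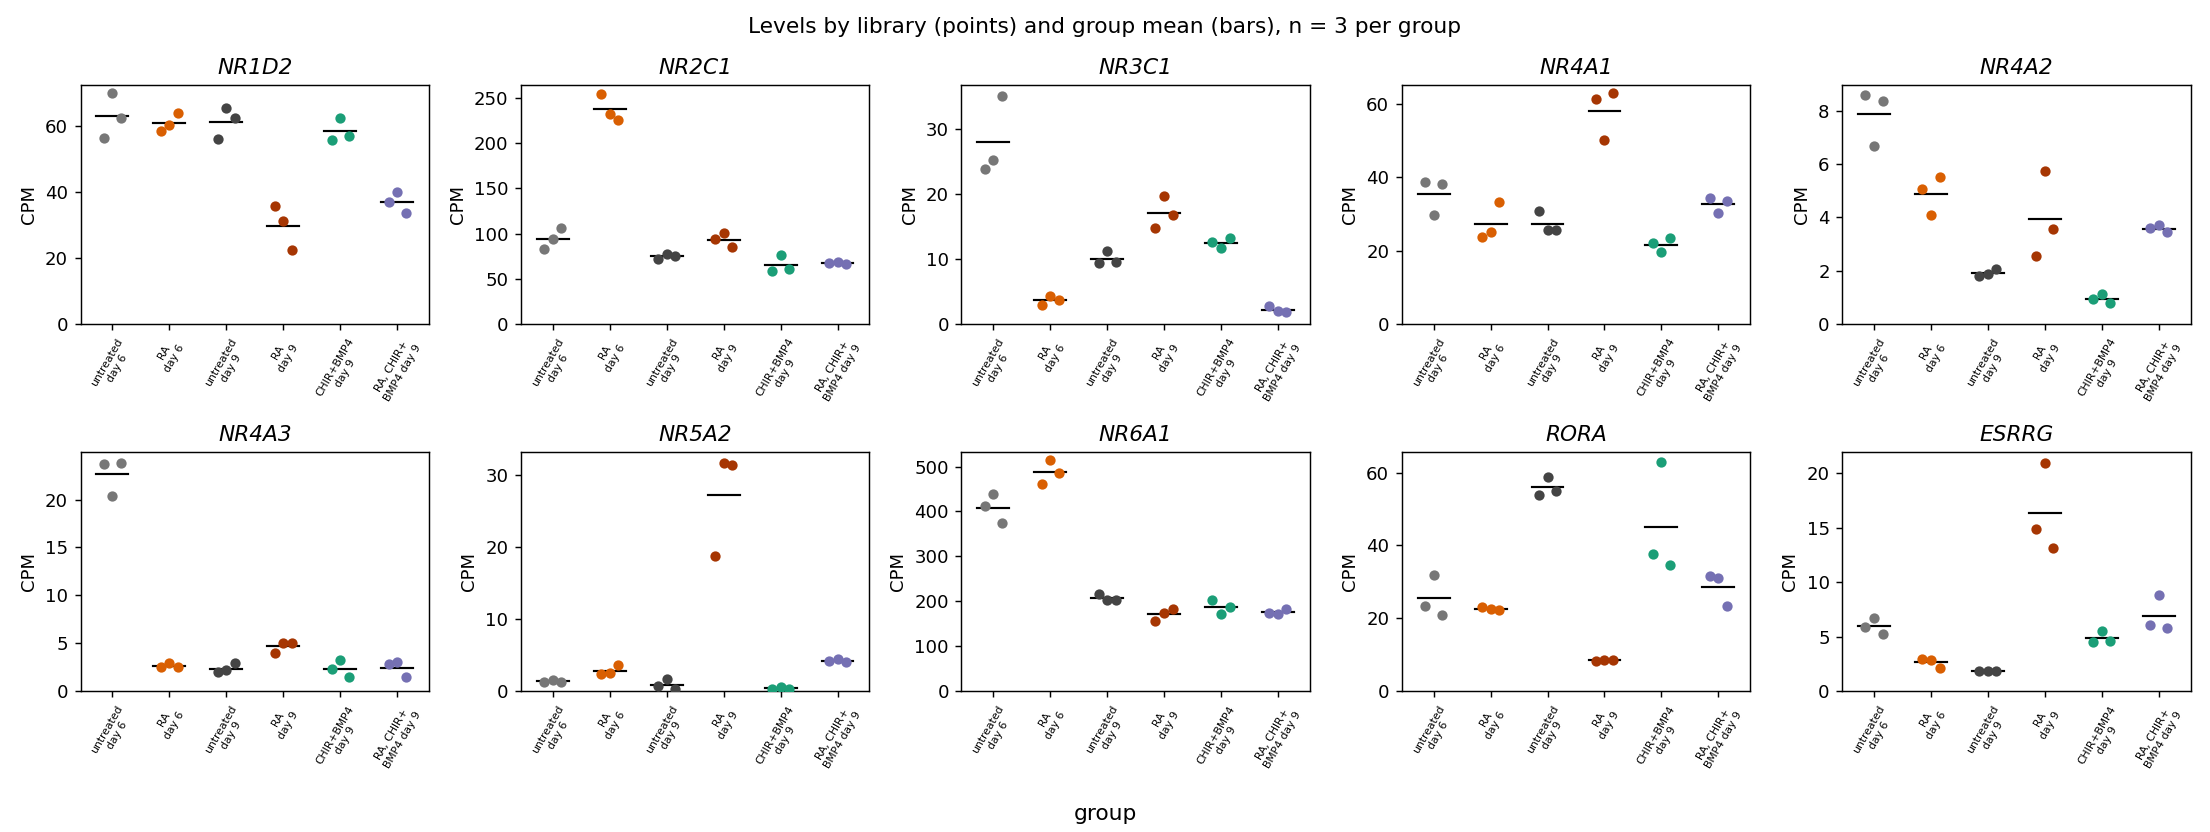
CPM of 10 receptors by group on linear axes from 0, each with its own scale; points are libraries and bars are means of 3. NR4A3 is near 20 CPM or above in untreated day 6 libraries alone (20.4 to 23.8 CPM), and RORA is lowest with RA at day 9 (8.34 to 8.56 CPM).

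Of the clock-linked receptors, RORA and NR1D2 fell with RA at day 9. RORA activates and the REV-ERB receptors NR1D1 and NR1D2 repress transcription through shared response elements in the circadian loop. RORA stood at 53.8, 58.9 and 55 CPM in untreated and 8.34, 8.56 and 8.44 CPM in RA cells at day 9, a 6.58-fold fall (log2 fold change -2.72 ± 0.22 SE, edgeR adjusted p = 1.4e-08). At day 6 it stood at 23.5, 32 and 21 and 23.1, 22.6 and 22.2 CPM, which overlapped (log2 fold change -0.15 ± 0.21 SE, edgeR adjusted p = 0.57). CHIR/BMP4 gave 37.7, 62.9 and 34.6 CPM alone and 31.5, 31.1 and 23.4 CPM after RA, where it was higher than with RA alone (log2 fold change 1.78 ± 0.23 SE, edgeR adjusted p = 3.1e-06). RA lowered it under CHIR/BMP4 (log2 fold change -0.61 ± 0.18 SE, edgeR adjusted p = 0.013), a call lost without CHIR/BMP4 replicate 2 (-0.31, edgeR adjusted p = 0.053) or RA then CHIR/BMP4 replicate 3 (-0.50, edgeR adjusted p = 0.052).

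NR1D2 stood at 56, 65.4 and 62.4 CPM in untreated and 35.6, 31.3 and 22.3 CPM in RA cells at day 9 (log2 fold change -1.04 ± 0.12 SE, edgeR adjusted p = 1.1e-07). With CHIR/BMP4 it stood at 55.7, 62.5 and 56.8 CPM alone and 36.9, 39.9 and 33.6 CPM after RA (log2 fold change -0.66 ± 0.11 SE, edgeR adjusted p = 5.5e-05), and neither pair of groups overlapped. At day 6 the groups stood at 56.4, 70.0 and 62.4 and 58.4, 60.3 and 63.9 CPM and overlapped. The day 9 calls of both genes for RA were lost with the read-kind covariate, at -1.18 for RORA (edgeR adjusted p = 0.45) and -0.61 for NR1D2 (edgeR adjusted p = 0.52). NR1D1 fell with RA at day 9, at 5.28 ± 0.873 CPM untreated and 2.64 ± 0.517 CPM with RA at day 9 (log2 fold change -0.95 ± 0.26 SE, edgeR adjusted p = 0.0024), and its 3′ end overlaps THRA on the other strand, so its reads are uncertain. Of 13 tested clock partners, 5 rose and 6 fell with RA at day 9 and 3 rose and 5 fell with RA under CHIR/BMP4 (medians -0.05 and -0.07 against -0.02 and -0.01 over all genes). BHLHE40, a clock repressor, rose from 3.19 ± 0.92 to 34.9 ± 0.84 CPM with RA at day 9, and PER3 fell from 13.6 ± 2.40 to 2.88 ± 1.0 CPM.

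NR2C1 (TR2) rose with RA at day 6. It and NR2C2 (TR4) are orphan receptors that bind direct repeats and are known to repress embryonic globin genes. NR2C1 stood at 82.6, 94.5 and 106 CPM in untreated and 255, 232 and 226 CPM in RA cells at day 6 (log2 fold change 1.33 ± 0.09 SE, edgeR adjusted p = 4.4e-11). At day 9 it stood at 72.2, 77.5 and 75 and 93.5, 100.1 and 85.3 CPM, still without overlap but closer (log2 fold change 0.32 ± 0.10 SE, edgeR adjusted p = 0.0062), and at 58.4, 76.5 and 61 and 67.7, 69 and 65.9 CPM with CHIR/BMP4 (log2 fold change 0.06 ± 0.10 SE, edgeR adjusted p = 0.66). RA day 6 was its single high group, and after RA it fell 2.56-fold to day 9 (log2 fold change -1.35 ± 0.09 SE, edgeR adjusted p = 1.7e-11). With the read-kind covariate the day 6 rise was 1.05 (edgeR adjusted p = 0.066) and the day 9 value turned to -0.03. NR2C2 kept within 63.6 to 92.2 CPM over the group means.

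ESRRG turned from lower to higher with RA between day 6 and day 9. The estrogen-related receptors are orphan receptors that drive mitochondrial and oxidative genes. ESRRG stood at 5.9, 6.68 and 5.26 CPM in untreated and 2.98, 2.86 and 2.12 CPM in RA cells at day 6 (log2 fold change -1.12 ± 0.24 SE, edgeR adjusted p = 4.8e-04). At day 9 it stood at 1.89, 1.87 and 1.9 and 14.9, 21 and 13.1 CPM (log2 fold change 3.11 ± 0.23 SE, edgeR adjusted p = 3.5e-11), with no overlap at either day. CHIR/BMP4 gave 4.49, 5.54 and 4.61 CPM alone and 6.12, 8.84 and 5.79 CPM after RA, and this difference (log2 fold change 0.51 ± 0.20 SE, edgeR adjusted p = 0.038) was lost without either of 2 CHIR/BMP4 replicates or RA then CHIR/BMP4 replicate 2 (edgeR adjusted p from 0.11 to 0.25). The day 9 rise stayed called with the read-kind covariate (4.01, edgeR adjusted p = 0.015), but the day 6 fall lost its call. With the earlier summed-share form of the covariate, the day 6 value of ESRRG reversed in sign and neither day was called. ESRRA, a widely expressed member, ran from 15 ± 1.49 CPM to 26.3 ± 0.571 CPM over the groups and fell with CHIR/BMP4 after RA (log2 fold change -0.82 ± 0.12 SE, edgeR adjusted p = 1.7e-06).

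**Figure D4:**
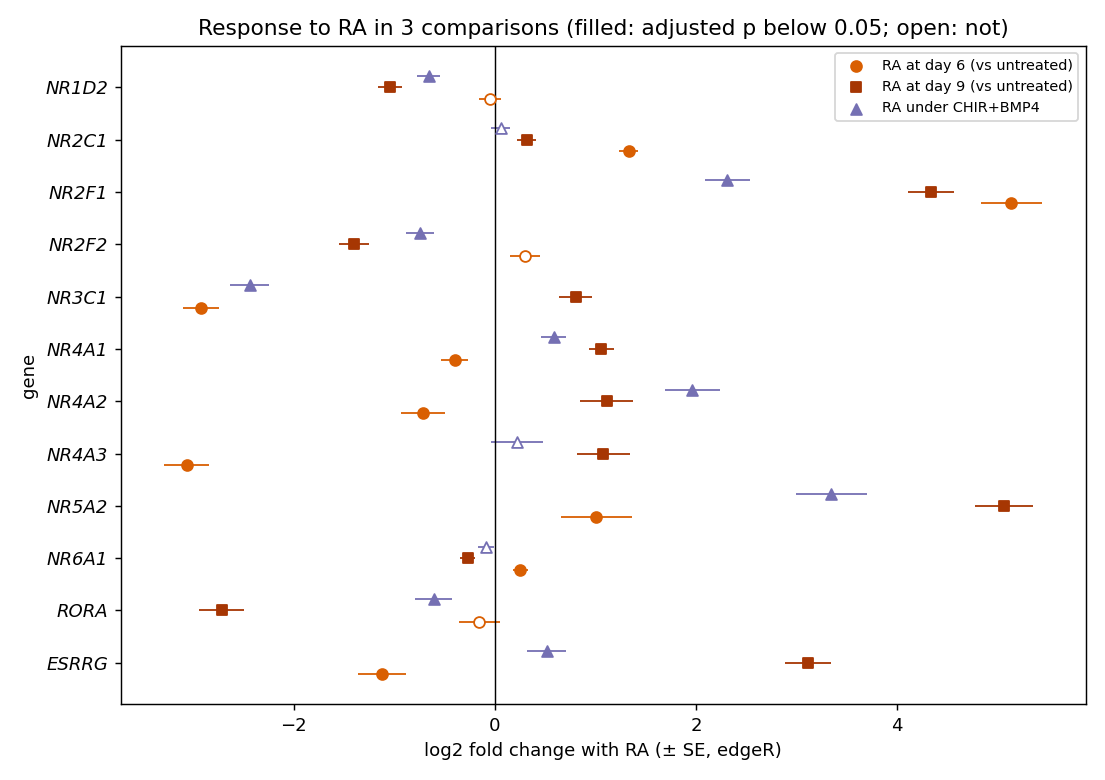
Log2 fold change with RA (x axis, bars are SE) for 12 receptors at day 6, at day 9 and under CHIR/BMP4; filled points had an adjusted p below 0.05. NR2F1 lies to the right of 0 in all 3, NR3C1 lies left at day 6 (-2.92) and under CHIR/BMP4 (-2.44) and right at day 9 (0.80).

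Among the metabolic receptors, PPARA was higher with RA at day 6 and lower at day 9. PPARA, a fatty acid receptor of oxidative tissues, rose with RA at day 6 from 29 ± 4.91 to 42.5 ± 3.0 CPM (log2 fold change 0.57 ± 0.12 SE, edgeR adjusted p = 4.1e-04) and stood lower with RA at day 9, at 32 ± 3.93 against 49.9 ± 2.99 CPM (log2 fold change -0.64 ± 0.12 SE, edgeR adjusted p = 4.8e-05), a value that turned to 0.56 with the read-kind covariate. PPARD, the widely expressed member, fell with RA under CHIR/BMP4 from 32.8 ± 1.71 to 24.3 ± 1.4 CPM (log2 fold change -0.44 ± 0.10 SE, edgeR adjusted p = 7.9e-04). PPARG, the adipocyte regulator, stayed at or under 2.22 CPM in every group mean. Of 11 tested PPAR targets, 5 rose and 4 fell with RA at day 6, and 7 rose and 1 fell with RA at day 9. With RA under CHIR/BMP4, 3 rose and 3 fell (medians 0.30, 0.32 and -0.06 in these comparisons). Over all tested genes the medians were 0, -0.02 and -0.01, and 48.7%, 65.1% and 43.3% were called. ANGPTL4, a lipase inhibitor, fell from 13.0 ± 2.18 to 1.75 ± 0.43 CPM with RA under CHIR/BMP4.

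NR1H2 and NR1H3 are the oxysterol receptors (LXRs) of cholesterol efflux. NR1H2 ran from 23.1 ± 0.758 to 27.9 ± 3.82 CPM over the groups and was called in no comparison, and NR1H3 was lower with RA at day 9, 6.87 ± 0.706 against 9.87 ± 0.846 CPM (log2 fold change -0.53 ± 0.17 SE, edgeR adjusted p = 0.0091). Of 8 tested LXR targets, 5 rose and none fell with RA at day 6 (median 0.68 against 0 over all genes), 1 rose and 2 fell with RA at day 9 (median 0.08 against -0.02), 3 rose and 1 fell with RA under CHIR/BMP4 (median 0.20 against -0.01), and none rose and 7 fell from day 6 to day 9 after RA (median -0.77 against -0.03). MYLIP, a ligase that degrades the LDL receptor, rose with RA at day 6 from 6.63 ± 2.78 to 55.6 ± 14.1 CPM, and the cholesterol exporter ABCA1 from 186 ± 14.4 to 383 ± 14.1 CPM. ABCA1 instead fell with RA at day 9, from 237 ± 32.2 to 150.1 ± 17.1 CPM, and under CHIR/BMP4, from 127 ± 18.1 to 76.2 ± 6.96 CPM.

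NR1I2 (PXR), the xenobiotic receptor of liver and gut, rose with RA at day 6 from 0.553 ± 0.243 to 2.45 ± 0.153 CPM (log2 fold change 2.10 ± 0.37 SE, edgeR adjusted p = 5.5e-05) and under CHIR/BMP4 from 0.429 ± 0.215 to 1.73 ± 0.165 CPM (log2 fold change 1.94 ± 0.34 SE, edgeR adjusted p = 6.7e-05). Summed hepatic markers stood at 21.8 to 37.4 and 473.5 to 574.5 CPM in the same day 6 groups, and at 62.7 to 99.7 and 105 to 129 CPM in the same CHIR/BMP4 groups; all 6 tested hepatic markers rose with RA at day 6, 3 rose and 1 fell under CHIR/BMP4, and none of the 7 was at 0. At day 9 all 6 also rose with RA, from a sum of 7.49 to 20.4 CPM to one of 204 to 301 CPM, while NR1I2 stood at 0.308 ± 0.179 and 0.483 ± 0.0389 CPM and was not called (log2 fold change 0.78 ± 0.54 SE, edgeR adjusted p = 0.23). The part of these markers in the NR1I2 results was not tested. VDR, the vitamin D receptor, was highest with CHIR/BMP4 alone, 2.44 ± 0.298 against 0.694 ± 0.183 CPM untreated (log2 fold change 1.66 ± 0.40 SE, edgeR adjusted p = 0.0016). ESR2, an estrogen receptor, was low in all groups and rose with CHIR/BMP4 after RA from 0.251 ± 0.0612 to 1.53 ± 0.391 CPM (log2 fold change 2.51 ± 0.52 SE, edgeR adjusted p = 1.7e-04). ESR2 had 131 counts in all libraries and overlaps SYNE2, with 58016 counts, over 142202 bases on the opposite strand, so its reads cannot be told apart from those of SYNE2 if strand was not used, and its values are uncertain. Of 10 VDR and xenobiotic receptor targets only 5 were tested, and of 8 bile acid receptor targets only 2.

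The coregulators through which these receptors act split in direction. Of 18 tested, 4 rose and 8 fell with RA at day 6 (median -0.19). At day 9, 6 rose and 3 fell with RA (median 0.01), and 3 rose and 4 fell with RA under CHIR/BMP4 (median 0.03). The medians of all tested genes were 0, -0.02 and -0.01 in these comparisons, and 48.7%, 65.1% and 43.3% of them were called. NRIP1, a corepressor known as an RA target, rose with RA at day 6 from 72.5 ± 8.29 to 145.5 ± 10.1 CPM and under CHIR/BMP4 from 111 ± 6.03 to 175 ± 9.35 CPM. The coactivator NCOA1 fell from 80.5 ± 8.38 to 46.5 ± 2.22 CPM and from 64.2 ± 3.97 to 43.7 ± 2.84 CPM in the same 2 comparisons.

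The 9 receptors that did not pass the filter were near or at 0. NR0B2 and NR2E1 had 0 counts in all 18 libraries, which allows up to 0.0155 CPM over all libraries (3 counts, counting error only). NR1I3 had 4 counts in all, ESR1 27, NR2E3 35, NR5A1 47 and ESRRB 127. NR1H4 (FXR), the bile acid receptor, had 34 counts, 30 of them in RA day 6 libraries (1.16 ± 0.584 CPM), and 0 in untreated day 6 libraries, which allows up to 0.13 CPM. PGR, the progesterone receptor, had 64 counts, 48 of them with CHIR/BMP4 alone (1.33 ± 0.768 CPM).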

How the data were processed

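Bulk RNA-seq of 18 libraries was analysed from a table of read counts and a table of TPM per gene that the authors deposited. RNA was made into stranded mRNA libraries per the labels' protocols, and the submitters' processing notes name STAR 2.7.9 and GRCh38. For the counting, the tool, annotation and use of strand were not given in the sources used here. The deposited counts hold whole reads per gene, and the deposited TPM equals count over one length per gene, scaled per library. Rows without a symbol held 0.00102% of counts. There were 0 unused per-sample columns.

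Counts were tested in edgeR 4.0.16 (R 4.3.3): filterByExpr (minimum count 10), TMM factors, robust quasi-likelihood fit of all 6 groups, 7 pairwise comparisons and 2 interactions, Benjamini-Hochberg adjustment over 15531 genes within each. The procedure was tested on simulated data with few changed genes, in a single group, and no read kinds. In these data many genes changed and read kinds differed, which that test does not cover. CPM use TMM library sizes. Totals of 5792337 to 25371661 counts limit low genes, and floors cover counting error only. Intervals use the SE of the edgeR fit and so include the spread among libraries. Replicate pairs differed by 2.16 to 10.63 in chi-square per gene, more than sampling noise, so none was merged.

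Receptors are given library by library where the highest group mean was at least 5 CPM and at least 1 pairwise call was 2-fold or more, which 12 met. List genes are named, at most 4 per list and comparison, by largest called change at 5 CPM or more. Other receptors are given by group. The members and lists were chosen with earlier results of these data known.

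The read kind of a library is its median position between untreated and treated libraries over 56 genes (at least 10-fold apart, mean of 2 CPM or more). It was first a summed share, and was redefined after the receptors' results under that share had been seen; both outcomes are given. Alternatives were DESeq2 1.42.0, limma 3.58.1 on log2(TPM + 0.1), other factors and filters, a replicate block, only the compared groups, the read-kind covariate and leaving out libraries.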

Additional observations from a re-analysis of the deposited data

Results flagged for a closer look

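The effect of RA at day 9 differed between cells with and without CHIR/BMP4 for 11 of 26 receptors by an interaction test (42.3%, against 53.4% of all tested genes). Each value is the log2 response under CHIR/BMP4 minus that without it ± SE, followed in brackets by the response without and with CHIR/BMP4. The differences of greatest size were NR3C1 -3.24 ± 0.26 (edgeR adjusted p = 5.1e-10; 0.8 and -2.44), ESRRG -2.6 ± 0.3 (edgeR adjusted p = 1.9e-07; 3.11 and 0.51) and ESR2 2.19 ± 0.7 (edgeR adjusted p = 1.1e-02; -1.31 and 0.88). Next in size were RORA 2.11 ± 0.29 (edgeR adjusted p = 1.3e-05; -2.72 and -0.61), NR2F1 -2.02 ± 0.33 (edgeR adjusted p = 6.1e-05; 4.34 and 2.31) and NR5A2 -1.72 ± 0.57 (edgeR adjusted p = 1.4e-02; 5.06 and 3.35). Smaller ones were NR1D1 1.12 ± 0.34 (edgeR adjusted p = 7.2e-03; -0.95 and 0.17), PPARA 0.67 ± 0.16 (edgeR adjusted p = 1.2e-03; -0.64 and 0.03) and NR2F2 0.66 ± 0.21 (edgeR adjusted p = 1.4e-02; -1.4 and -0.75). The last were NR4A1 -0.47 ± 0.18 (edgeR adjusted p = 2.9e-02; 1.06 and 0.59) and NR2C2 0.4 ± 0.11 (edgeR adjusted p = 4.4e-03; -0.22 and 0.17). The 2 responses had opposite signs in 5 of the 11, but among these both responses were called only for NR3C1. NR1D1, PPARA and NR2C2 were not called for RA under CHIR/BMP4, and ESR2 was called in neither. The value for ESR2 is uncertain, since it has 131 counts in all and overlaps SYNE2, with 58016 counts, on the opposite strand. Read kind and group cannot be told apart here, and with the read-kind covariate only ESRRG stayed called (-3.50, edgeR adjusted p = 0.037).

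The effect of RA differed between day 6 and day 9 for 15 of 26 receptors (57.7%, against 50.9% of all tested genes). Each value is the day 9 response minus the day 6 response ± SE, with the day 6 and then the day 9 response in brackets. ESRRG led the list: ESRRG 4.24 ± 0.33 (edgeR adjusted p = 4.0e-10; -1.12 and 3.11), NR4A3 4.14 ± 0.34 (edgeR adjusted p = 1.1e-09; -3.06 and 1.08) and NR5A2 4.05 ± 0.51 (edgeR adjusted p = 6.2e-07; 1.01 and 5.06). Then came NR3C1 3.72 ± 0.25 (edgeR adjusted p = 3.1e-11; -2.92 and 0.8), RORA -2.56 ± 0.31 (edgeR adjusted p = 2.9e-06; -0.15 and -2.72) and NR4A2 1.82 ± 0.34 (edgeR adjusted p = 1.1e-04; -0.71 and 1.11). In the middle were NR2F2 -1.7 ± 0.21 (edgeR adjusted p = 6.0e-06; 0.3 and -1.4), NR1D1 -1.6 ± 0.36 (edgeR adjusted p = 7.6e-04; 0.65 and -0.95) and NR4A1 1.46 ± 0.18 (edgeR adjusted p = 5.4e-07; -0.4 and 1.06). Below these were PPARA -1.21 ± 0.17 (edgeR adjusted p = 2.5e-06; 0.57 and -0.64), NR2C1 -1.01 ± 0.13 (edgeR adjusted p = 1.3e-06; 1.33 and 0.32) and NR1D2 -1 ± 0.17 (edgeR adjusted p = 3.1e-05; -0.05 and -1.04). The smallest were NR2F6 -0.82 ± 0.11 (edgeR adjusted p = 2.2e-06; 0.86 and 0.04), PPARD -0.61 ± 0.15 (edgeR adjusted p = 1.8e-03; 0.1 and -0.52) and NR6A1 -0.52 ± 0.11 (edgeR adjusted p = 3.0e-04; 0.25 and -0.27). The 2 responses had opposite signs in 10 of the 15, and among these the day 6 responses of NR2F2 and PPARD were not called. The day 6 call of NR1D1 was lost without any of several single libraries (edgeR adjusted p from 0.057 to 0.15). With the read-kind covariate all 15 differences stayed called. The day 9 responses of NR3C1, NR6A1, PPARA and PPARD reversed under it, so their opposite signs are uncertain.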

How the results depend on the processing

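Of 138 receptor calls over 9 comparisons, none reversed and 138 stayed called with a filter of 1 CPM, 137 with no filter, 137 with RLE factors, 134 with upper quartile factors, 130 with DESeq2 and 127 of 131 with only the compared groups. With upper quartile factors 10 receptors were called higher for RA by CHIR/BMP4. In limma on log2(TPM + 0.1), 118 stayed called; the receptors called lower were 3 for RA at day 6, 5 for RA at day 9, 1 for CHIR/BMP4 without RA and 8 for the interaction with CHIR/BMP4, and for RA at day 9 NR2C2 (0.10) and NR6A1 (0.06) reversed. Same-numbered replicates were not paired (3 of 21 pairs correlated over 0.1, range -0.076 to 0.228); the replicate block kept 136 calls and lost PPARG (-1.07, edgeR adjusted p = 0.060) and VDR (1.27, edgeR adjusted p = 0.059) for CHIR/BMP4 after RA.

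With the read-kind covariate 82 calls stayed, 48 were lost and 8 reversed. Receptors called higher and lower were 1 and 2 for RA at day 6, 1 and 0 for RA at day 9, 0 and 0 for CHIR/BMP4 without RA, and 0 and 1 for the interaction with CHIR/BMP4. All tested genes called were 891, 1080, 120 and 1082 in the same order, beside 7571, 10105, 6654 and 8300 without the covariate. Beside the receptor counts of 0, unadjusted edgeR p below 0.05 was met by 1 lower for RA at day 9, 2 and 2 for CHIR/BMP4 without RA and 1 higher for the interaction. NR2C1 (-0.03), NR3C1 (-0.37), NR6A1 (0.28), PPARA (0.56) and PPARD (0.07) reversed for RA at day 9, PPARA (0.77) for CHIR/BMP4 without RA, and NR4A1 (0.49) and PPARA (-0.53) for the interaction. The covariate's slope comes by construction from 3 untreated day 6 libraries.

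The earlier summed-share form kept 79 calls. It left 0 and 1 for RA at day 6, and 0 and 0 for RA at day 9, CHIR/BMP4 without RA and the interaction (unadjusted 1 and 1 for the last). NR1I2 (-0.07) and ESRRG (0.60) reversed for RA at day 6. For RA at day 9, NR1H3 (0.37), NR2C1 (-0.77), NR2C2 (0.02), NR3C1 (-2.02), NR4A1 (-0.93), NR4A2 (-0.59), NR4A3 (-0.31), NR6A1 (1.12), PPARA (2.10), PPARD (0.87) and RORA (0.37) reversed. PPARA (2.28) and ESRRA (0.25) reversed for CHIR/BMP4 without RA, and NR4A1 (1.53), PPARA (-2.08) and RORA (-0.99) for the interaction. Without both mixed untreated day 6 libraries, chosen after seeing the data, only replicate 2 of that group remained, so no calls are counted for it. Beyond these constructions the cause was not tested.

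Leaving out 1 library kept 902 of 984 calls and reversed none. Receptors called higher ranged from 5 to 8 and lower from 4 to 6 for RA at day 6, 9 to 9 and 8 to 10 for RA at day 9, 3 to 4 and 4 to 7 for CHIR/BMP4 without RA, 5 to 7 and 6 to 8 for RA under CHIR/BMP4, and 5 to 9 and 9 to 10 for CHIR/BMP4 after RA. The lows of 5 came without untreated day 6 replicate 3 and without RA then CHIR/BMP4 replicate 1. From day 6 to day 9 they ranged from 6 to 8 and 7 to 8 untreated, and 8 to 8 and 10 to 12 after RA. The interactions gave 6 to 7 and 4 to 6 with CHIR/BMP4, and 6 to 6 and 9 to 10 with day. The 9 receptors under the filter on low counts were not tested, and their changes were not detectable here.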
